A study of Mus musculus with 6 samples.

Results

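The genes described here build ribosomes: they encode the subunits of RNA polymerase I and the nucleolar proteins that modify, cut and assemble ribosomal RNA. They were taken by name from the array's annotation. Members were all probes whose gene name begins with Nop, Utp or Rrp and a digit, or with Nol, Rrs1, Noc2l, Noc3l, Noc4l, Polr1, Gar1 or Nhp2, those named Imp3 or Imp4, and those for Ncl, Npm1, Fbl, Dkc1, Wdr12, Wdr43, Bop1, Pes1, Ddx18, Ddx21, Mybbp1a, Nob1 and Grwd1. Nol3, which the name pattern would have taken in, was left out. This gave 57 genes with 100 probes, of 27827 gene or transcript names and 41174 probes on the array. The array names 4 of the genes by older symbols: Nol5 is now Nop58, Nol5a is Nop56, Nhp2l1 is Snu13 and Utp11l is Utp11. A further 7 genes that carry a matching name in the RefSeq annotation used here (Nol4l, Nop53, Nop9, Rrp36, Rrp8, Utp25 and Utp4) are listed on the array under other names. They were not counted as members.

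The cells were mouse pre-pro-B cells, the early stage of B-cell development that is labelled Fr.A, with the genotype Ebf -/- (Ebf1 -/- in the sample titles), so that both groups lacked their own Ebf1, the transcription factor that commits lymphoid progenitors to the B lineage. Cultures were kept on a layer of OP9 stromal cells, and received Flt3 ligand, stem cell factor and interleukin 7, each at 10 ng/ml. One group of 3 arrays came from cells infected with the retrovirus pMYs-IRES-EGFP, which carries EGFP alone, and the other 3 from cells infected with pMYs-Ebf1beta-IRES-EGFP, which restores Ebf1. Cells were kept for 24 h after infection and sorted for EGFP, and total RNA was labelled with Cy3 and hybridised to 1-colour arrays. The comparison asks which transcripts change when Ebf1 returns to cells that lack it. Whether the 3 samples of a group came from separate cultures or animals is not given in the sources used here, so the p-values measure the spread between these samples, which may be technical. In bulk RNA, fewer cells of a type and less RNA per cell cannot be told apart.

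Ribosome production starts in the nucleolus, where RNA polymerase I transcribes one long precursor of ribosomal RNA. Small nucleolar RNAs in protein complexes of the box C/D and box H/ACA classes guide methylation and pseudouridylation of that precursor, and large assemblies then fold and cut it into the RNAs of the small (40S) and large (60S) subunits. Output of this pathway is tied to growth and proliferation, and in many cell types Myc proteins, which bind the E box CACGTG with their partner Max, raise transcription of its genes.

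All values are log2 signals relative to the 75th percentile of the same array, written as level, and all changes are the mean of the Ebf1 arrays minus the mean of the control arrays with the standard error from the limma fit. A gene was called when its adjusted p was under 0.05 over 20454 tested probes. The share of probes well above background was 46.3% to 50.2% on control arrays and 50.3% to 59.8% on Ebf1 arrays. Every Ebf1 array thus stood above every control in this share. Correlations were 0.989 to 0.993 among control arrays, 0.984 to 0.992 among Ebf1 arrays and 0.938 to 0.958 between groups. One Ebf1 probe (mm9, chr11:44818365-44818424) was above background and read 0.86, 0.10 and 0.36 on the control arrays and 0.22, 0.40 and 0.27 on the Ebf1 arrays (change -0.15 ± 0.21, adjusted p = 0.646). The groups overlapped there, and whether the probe lies in the stretch that the virus carries or that the mutation removes was not tested, so it does not check the labels. Among 14 tested markers of progenitor and early B cells, Igll1 and Vpreb1, the surrogate light chain genes, rose by 11.00 ± 0.14 (adjusted p = 5.87e-08) and 8.20 ± 0.15 (adjusted p = 3.48e-07), while Spn fell by 1.60 ± 0.14 (adjusted p = 0.000173) and Il7r fell by 1.69 ± 0.15 (adjusted p = 0.000196). Pax5 and Cd79a, also on this list of markers, were not well above background often enough to be tested.

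Ribosome biogenesis genes were lower in the cells that received Ebf1. Of the 55 member genes that could be tested, 27 fell, 0 rose and 28 were not called, where 11.0% of all 13835 genes fell and 12.6% rose. The change was negative in 53 of the 55 against 55.4% of all genes, with a median of -0.54 against -0.06 over all genes and a range from -1.52 to 0.03. In 38 of the 55 genes every Ebf1 array lay below every control array and in 0 every one lay above, where 25.2% of all genes had all Ebf1 arrays below. The untested genes were Nol4, whose 3 probes were not well above background on any array, and Utp14b, whose single probe was above background on 1 control and 1 Ebf1 array. Counted by probe, 43 of 88 tested fell and 0 rose, where 10.2% of all tested probes fell, and 83 of 88 were negative.

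**Figure D1:**
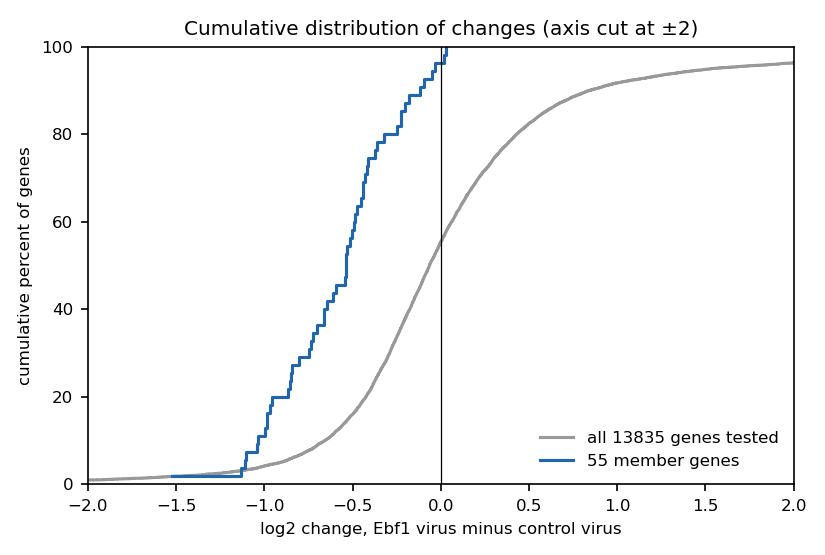
Cumulative percent of genes (vertical) by log2 change, Ebf1 virus minus control virus (horizontal), for the 55 tested member genes and for all 13835 genes tested. The curve of the members lies to the left, with a median of -0.54 against -0.06, and reaches 100% just right of 0.

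The fall was present on each of the 3 Ebf1 arrays. Relative to each gene's control mean, the median over the 55 members was -0.69, -0.55 and -0.50 on Ebf1 replicates 1, 2 and 3, and -0.01, 0.02 and -0.02 on the control arrays. Over all genes the same median lay between -0.09 and 0.04 on the 6 arrays. On Ebf1 replicates 1, 2 and 3, 45, 46 and 47 of the 55 members lay below all 3 controls, where 43.5%, 42.0% and 35.0% of all genes did. Ebf1 replicate 1 was the lowest of the 6 arrays for 32 members, Ebf1 replicate 2 for 10 and Ebf1 replicate 3 for 11. Slide 1 held only controls and slide 3 only Ebf1 arrays, so the single comparison within a slide was control replicate 2 against Ebf1 replicate 1, where 49 of 55 members were lower with a median difference of -0.74, against -0.11 over all genes, 56.9% of which were lower.

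The count of 27 genes depended on the arrays and settings used. It was 15 without control replicate 2, 14 without control replicate 3, 10 with slide as a fixed block and 7 of 57 with no filter on dim probes, settings in which 5.28%, 5.89%, 4.43% and 1.83% of all genes fell, and by probe it was 20 without control replicate 2, 21 without control replicate 3 and 28 without Ebf1 replicate 2. The fit with slide as a fixed block takes its change from control replicate 2 and Ebf1 replicate 1 alone, 1 array a group, so that it repeats the comparison within slide 2. Of the 18 called members whose arrays are given one by one below, 12 lost the call in that fit (all but Grwd1, Nhp2, Ddx21, Wdr43, Mybbp1a and Rrp9) and 11 with no filter on dim probes (all but Grwd1, Nop2, Rrp15, Nhp2, Nolc1, Ddx21 and Wdr43).

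Markers of the stromal feeder cells moved with the groups in the other direction. Of 20 such genes 14 were tested, all 14 had positive changes (median 0.61) and 3 rose, Fstl1 (0.65 ± 0.17, adjusted p = 0.0335), Fn1 (1.07 ± 0.30, adjusted p = 0.042) and Col5a1 (0.88 ± 0.26, adjusted p = 0.0488). With all arrays, 12.6% of all genes rose and 55.4% had a negative change. None of the list was called without control replicate 1, without control replicate 3, without Ebf1 replicate 1 or with no filter on dim probes, and 1 was without Ebf1 replicate 2 or 3. Their summed linear signal, in multiples of the 75th percentile, lay between 16.9 and 24.3 in controls and between 27.0 and 35.5 with Ebf1. Dcn, Lum, Pdgfra, Postn, Thbs1 and Vcam1 were not well above background on all arrays of either group. The pan-leukocyte gene Ptprc changed by -0.09 ± 0.14 (adjusted p = 0.693). Cells had been sorted for EGFP before these signals were measured, and how far that step left out feeder cells was not tested. The part of feeder RNA in the lower signal of the ribosome biogenesis genes was not tested.

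**Figure D2:**
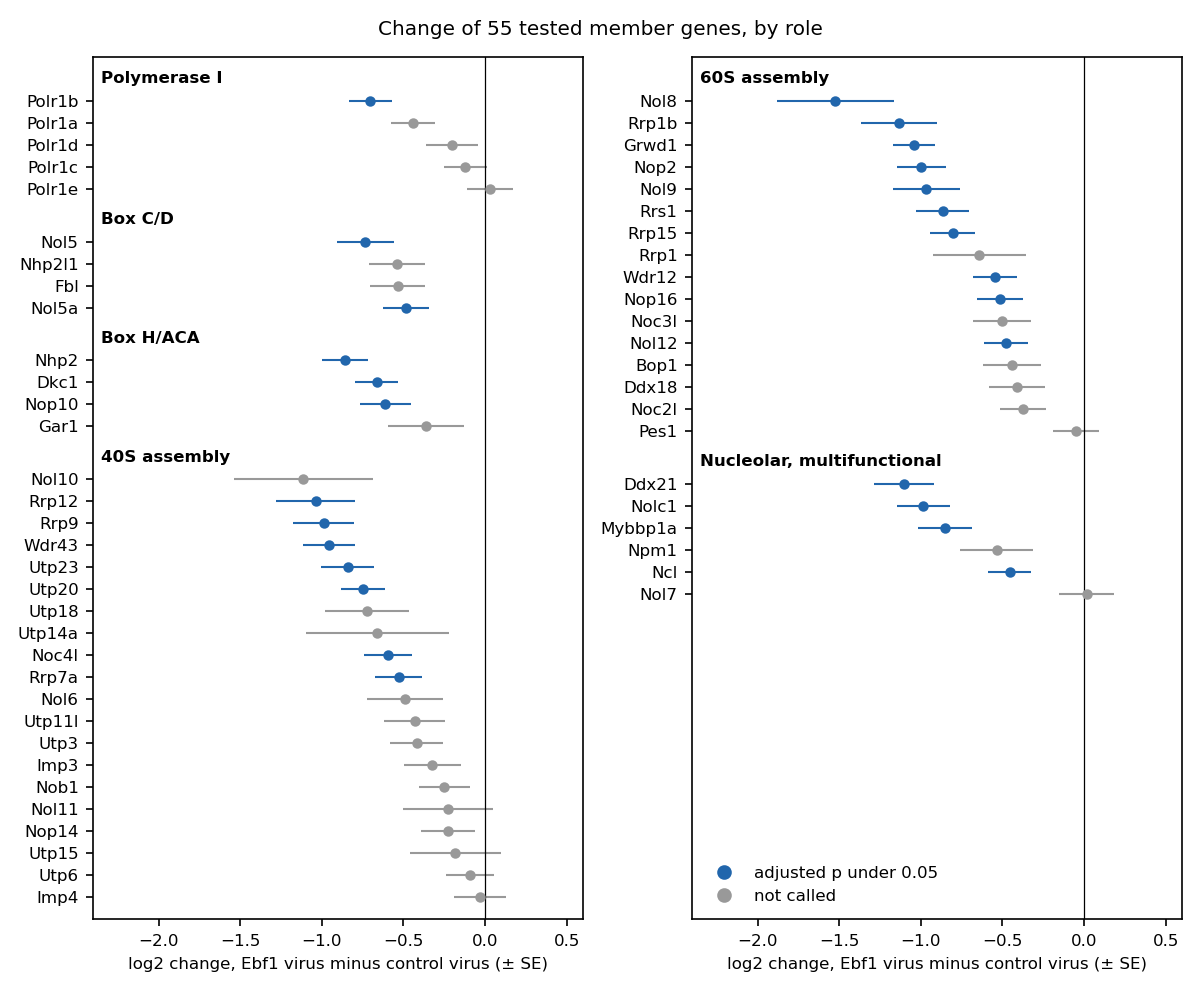
Change of each tested member gene (points, log2, Ebf1 virus minus control virus, 3 arrays a group) with its standard error (bars), grouped by role. Blue points passed an adjusted p of 0.05 and grey points did not; only Polr1e and Nol7 lie right of 0.

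Of the 5 tested subunits of RNA polymerase I with a Polr1 name 1 fell, with a median change of -0.20. With so few genes, this count cannot be told from the 11.0% of all genes that fell. The counts of the role groups that follow are to be read beside the same 11.0%. Cd3eap, Twistnb and Znrd1, subunits that the array lists under other names, are counted with the accessory factors below. Cd3eap also fell, while Twistnb (-0.85 ± 0.41, adjusted p = 0.18) and Znrd1 (-0.13 ± 0.14, adjusted p = 0.526) were not called. Polr1b, which encodes the second-largest subunit, read 1.95, 1.83 and 1.85 on the control arrays and 1.09, 1.17 and 1.26 on the Ebf1 arrays. These groups did not overlap, and the gene fell by 0.70 ± 0.13 (adjusted p = 0.00901), to 61.4% of the control level, a call lost with slide as a fixed block and with no filter on dim probes. Polr1a, for the largest subunit, changed by -0.44 ± 0.13 without passing the test (adjusted p = 0.0519), though its Ebf1 arrays (3.47 to 3.56) all lay below its controls (3.85 to 4.02). Polr1c and Polr1d, whose products also belong to RNA polymerase III, changed by -0.12 ± 0.13 and -0.20 ± 0.16. At the other end was Polr1e, for a subunit of the polymerase's peripheral subcomplex, at 0.53, 0.47 and 0.33 in controls and 0.62, 0.39 and 0.42 with Ebf1. Its groups overlapped (change 0.03 ± 0.14, adjusted p = 0.903).

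Among the core proteins of the box C/D complexes, which methylate ribosomal RNA, 2 of 4 fell, with a median of -0.54. All 4 had separate groups, where 25.2% of all genes had all Ebf1 arrays below the controls. Nol5 (Nop58), a scaffold protein of these complexes, read 5.23, 5.51 and 5.20 in controls and 4.38, 4.51 and 4.85 with Ebf1. It fell by 0.73 ± 0.18 (adjusted p = 0.0239), a call lost in 7 of 18 other settings. Its partner Nol5a (Nop56) was at 6.39, 6.68 and 6.48 against 6.01, 6.01 and 6.06 and fell by 0.49 ± 0.14 (adjusted p = 0.0453), a call that was lost in 12 of them. For both genes the lowest control stood above the highest Ebf1 array. Fbl, the methyltransferase, changed by a like amount, -0.54 ± 0.17, but did not pass (adjusted p = 0.0601), with controls from 7.84 to 8.14 and Ebf1 arrays from 7.31 to 7.73. Nhp2l1 (Snu13), which binds the guide RNA first, read 4.73, 4.67 and 4.64 against 3.85, 4.19 and 4.39 (change -0.54 ± 0.17, adjusted p = 0.0619), and its other probe fell by 0.66 ± 0.19 (adjusted p = 0.0489).

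The box H/ACA complexes, which convert uridines to pseudouridine and whose core proteins also sit in telomerase, had 3 of 4 members lower, with a median of -0.64. Nhp2 read 6.03, 6.09 and 6.04 in controls and 5.04, 5.23 and 5.33 with Ebf1, and fell by 0.86 ± 0.14 (adjusted p = 0.00462). Dkc1, the pseudouridine synthase, was at 0.59, 0.49 and 0.44 against -0.19, -0.21 and -0.08 and fell by 0.66 ± 0.13 (adjusted p = 0.0114), a call lost in 3 of 18 other settings, among them without control replicate 2. Nop10, the smallest core protein, was at 6.08, 6.33 and 6.33 against 5.45, 5.64 and 5.81 and fell by 0.61 ± 0.16 (adjusted p = 0.0314), a call lost in 8 of 18 other settings. In all 3 genes the Ebf1 arrays stood clear of the controls, where 25.2% of all genes had all Ebf1 arrays below the controls. These genes were picked by smallest p, which favours separate groups. Gar1, the remaining core protein, was at 2.92, 2.56 and 2.33 against 2.36, 2.52 and 1.85, and its groups overlapped (change -0.36 ± 0.23, adjusted p = 0.299).

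The largest group was that of the small subunit processome, the assembly that forms on the precursor as it is made, and of 40S maturation. Of 21 genes on the array 20 were tested and 7 fell, with a median of -0.51 and negative values in all 20. Separate groups were seen in 11, where 25.2% of all genes had all Ebf1 arrays below the controls. Wdr43, an early-binding processome protein, read 2.19, 2.50 and 2.35 in controls and 1.29, 1.29 and 1.59 with Ebf1, and fell by 0.96 ± 0.16 (adjusted p = 0.00484). Utp20 was at 2.93, 2.88 and 2.88 against 2.05, 2.12 and 2.28 and fell by 0.75 ± 0.14 (adjusted p = 0.00741). Rrp9, a protein of the U3 complex that guides the first cuts, was at 2.72, 2.88 and 2.78 against 1.45, 1.93 and 2.05 and fell by 0.99 ± 0.19 (adjusted p = 0.00876). In each of these the range within either group was smaller than the gap between the groups, and for Rrp9 the lowest array was Ebf1 replicate 1. Utp23 read 0.92, 1.04 and 1.09 against 0.01, 0.07 and 0.43 and fell by 0.84 ± 0.16 (adjusted p = 0.00967), but only by this probe of 3. The other 3 genes that fell were Rrp12, Noc4l and Rrp7a, with changes of -1.04 ± 0.24, -0.59 ± 0.15 and -0.53 ± 0.14.

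Several 40S genes had changes as large but with wide spread. Nol10 showed the lowest value of the group, -1.11 ± 0.43, and did not pass (adjusted p = 0.103). It read -5.09 on Ebf1 replicate 1, -3.76 and -3.21 on the other Ebf1 arrays and -3.00 to -2.81 on the controls. Utp18 (-0.72 ± 0.26) and Utp14a (-0.66 ± 0.44) also missed the threshold, with overlapping groups. The remaining uncalled 40S genes were Utp3, Utp11l, Nol6, Imp3, Nob1, Nop14, Nol11, Utp15, Utp6 and Imp4, between -0.49 (Nol6) and -0.03 (Imp4). Imp4, a partner of the U3 complex, read -1.98, -2.18 and -2.21 in controls and -2.02, -2.07 and -2.39 with Ebf1, with overlapping groups (adjusted p = 0.9).

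The 60S assembly factors had the most calls: 10 of 16 fell and all 16 were negative, with a median of -0.59. In 13 the groups were separate, where 25.2% of all genes had all Ebf1 arrays below the controls. Grwd1, a chaperone of a large-subunit ribosomal protein, read 2.87, 2.86 and 2.76 in controls and 1.75, 1.80 and 1.81 with Ebf1. It fell by 1.04 ± 0.13, 2.06-fold lower, and had the smallest p of all members (adjusted p = 0.00115). Its SD was 0.06 among controls and 0.04 among Ebf1 arrays, and it was called in all 18 other settings. Nop2, which methylates a cytosine of the large-subunit RNA, was at 5.08, 5.09 and 5.16 against 4.03, 4.32 and 3.99 and fell by 1.00 ± 0.15 (adjusted p = 0.00284). Rrp15 was at 4.39, 4.48 and 4.23 against 3.53, 3.57 and 3.59 and fell by 0.81 ± 0.14 (adjusted p = 0.00542). Rrs1, which helps to place the smallest ribosomal RNA, was at 2.57, 2.60 and 2.41 against 1.51, 1.56 and 1.91 and fell by 0.87 ± 0.16 (adjusted p = 0.00835). None of these 4 genes had overlapping groups, but they were picked by smallest p, which favours separate groups. 

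The largest fall of any member was that of Nol8, at 1.52 ± 0.36 (2.88-fold lower, adjusted p = 0.0222), and the gene is named here for that size. Its controls read 2.92, 2.45 and 2.70 and its Ebf1 arrays 0.29, 1.76 and 1.43, so that Ebf1 replicate 1 stood far below the other Ebf1 arrays while all 3 lay under the controls. Rrp1b (-1.13 ± 0.23) and Nol9 (-0.97 ± 0.21) were also lowest on Ebf1 replicate 1. The remaining calls were Wdr12, Nop16 and Nol12, between -0.54 and -0.48. Wdr12 forms a complex with Bop1 and Pes1 that is needed for large-subunit processing, and the 3 partners did not have like values: Wdr12 fell by 0.54 ± 0.14 (adjusted p = 0.0274), Bop1 was at -0.44 ± 0.18 (adjusted p = 0.116) and Pes1 at -0.05 ± 0.14 (adjusted p = 0.829). The differences between the partners were not tested. Pes1 read 4.60, 4.39 and 4.63 in controls and 4.48, 4.44 and 4.55 with Ebf1, all 3 Ebf1 arrays within the range of the controls, but its other probe fell by 0.56 ± 0.14 (adjusted p = 0.0303). Rrp1, Noc3l, Ddx18 and Noc2l were not called, between -0.64 and -0.37.

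Of the 6 chaperones and multifunctional proteins of the nucleolus 4 fell, with a median of -0.69. Nolc1, a chaperone of small nucleolar complexes, read 3.51, 3.13 and 3.24 in controls and 2.15, 2.35 and 2.42 with Ebf1 and fell by 0.98 ± 0.16 (adjusted p = 0.0045). Ddx21, an RNA helicase, was at 2.93, 3.32 and 2.99 against 1.75, 1.94 and 2.23 and fell by 1.11 ± 0.18 (adjusted p = 0.00481). Mybbp1a, a nucleolar partner of transcription factors, was at 2.45, 2.63 and 2.44 against 1.39, 1.79 and 1.78 and fell by 0.85 ± 0.16 (adjusted p = 0.00954). These 3 genes had separate groups, as had Ncl, where 25.2% of all genes had all Ebf1 arrays below the controls. All were picked by smallest p, which favours separate groups. Ncl, the abundant RNA-binding protein nucleolin, was at 7.43, 7.39 and 7.39 against 6.84, 7.01 and 7.00 and fell by 0.46 ± 0.13 (adjusted p = 0.0464), a call lost in 13 of 18 other settings. Npm1, the histone and ribosome chaperone nucleophosmin, changed by -0.54 ± 0.22 with overlapping groups (adjusted p = 0.132). Nol7 read 4.44, 4.43 and 4.25 against 4.62, 4.12 and 4.42 and its groups overlapped (change 0.02 ± 0.17, adjusted p = 0.959).

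**Figure D3:**
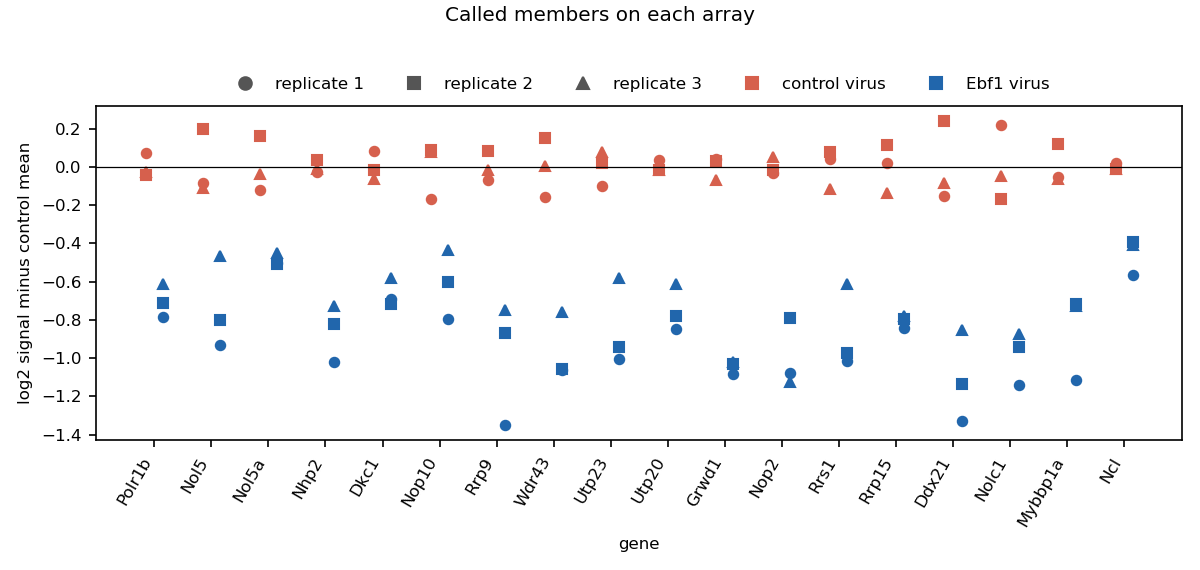
Log2 signal of 18 called members on each of the 6 arrays (vertical, minus the gene's control mean; symbols mark the replicate number) by gene (horizontal), ordered by role. In every gene the 3 Ebf1 arrays (blue) lie below the 3 control arrays (red), with mean changes from -0.46 for Ncl to -1.11 for Ddx21. The 18 genes were picked by smallest p, which favours groups that do not overlap.

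The array often measures a member with more than 1 probe, each a 60-base oligonucleotide. Of 27 genes with several tested probes, 7 fell by every probe (Ddx21 and Rrp1b by 3 each, Grwd1, Nol8, Nolc1, Nop16 and Wdr43 by 2 each), 12 by some and 8 by none, so that 19 of the 27 fell by at least 1 probe, where 15.4% of all genes with several tested probes did. With genes of a single probe included, 31 of 55 members fell by at least 1 probe, where 12.5% of all genes did. Those that differed were Ncl (3 of 4 probes lower), Wdr12 (2 of 3), Utp23 (1 of 3), and Dkc1, Nhp2l1, Noc2l, Nol12, Nol5a, Nol9, Nop14, Pes1 and Rrp7a (1 of 2 each). Probes of 4 genes disagreed in sign (Nol7, Polr1d, Rrp7a and Utp6), and in none of these was the positive value called. The widest gap was that of Nop14, whose representative probe changed by -0.23 ± 0.17 and whose other probe fell by 1.19 ± 0.32 (adjusted p = 0.0349). Probes of one gene are not separate evidence where they share sequence. Those of Ncl show this: 2 of its 3 lower probes overlap by 40 of 60 bases, written in capitals below, and changed by -0.46 ± 0.14 and -0.46 ± 0.13. The first lies at chr1:88247953-88248012 (mm9), and the second is mapped to chr1:88247602-88247992, a span longer than the probe.
Ncl probe 1: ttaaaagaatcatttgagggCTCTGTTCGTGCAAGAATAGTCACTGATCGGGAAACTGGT
Ncl probe 2: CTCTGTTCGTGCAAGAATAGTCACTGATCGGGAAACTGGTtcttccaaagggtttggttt

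**Figure D4:**
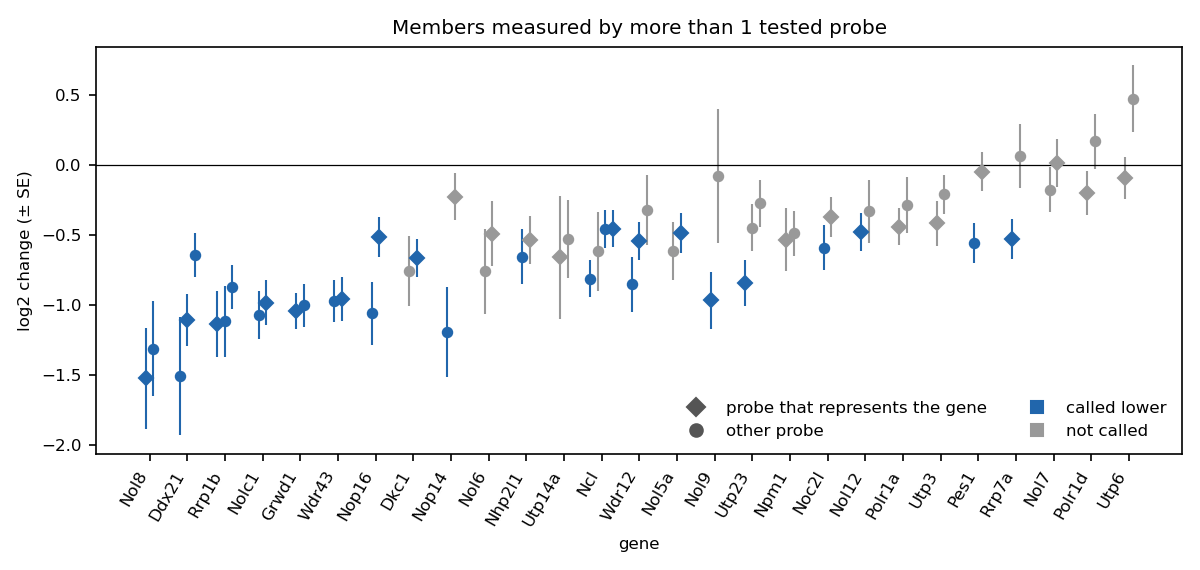
Log2 change of each tested probe with its standard error (vertical) for the 27 members with more than 1 tested probe (horizontal). Diamonds are the probes that stand for the gene and blue marks a call; the 2 probes of Nop14 lie farther apart than those of most genes, at -1.19 and -0.23.

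The E box that Myc proteins bind was searched for in RefSeq promoter windows (GRCm38.p6) of the members, which run from 250 bases before to 50 after each transcription start. Windows were given for 47 of the 57 genes, 52 windows in all. CACGTG, which reads the same on both strands, was present in 11 of the 52 windows (21.2%), beside 7.84% of windows of protein-coding genes. Among members called lower it was in 6 of 28 windows (21.4%), and among tested members not called in 4 of 23 (17.4%). Members' windows were also richer in CpG, with a median of 21 beside 13 for protein-coding genes, and the part of CpG content in the motif's share was not tested. An Ebf1 motif, TCCC and GGGA with any 2 bases between them, searched on both strands, was in 0 of the 52 windows, beside 0.959% of protein-coding windows. The 3 called members with the smallest p whose windows hold an E box were Grwd1, Nop2 and Wdr43, and their windows are printed to show where it lies (capitals), each in the direction of the gene. It begins 35 bases into the transcript for Grwd1 (chr7:45830740-45831039, minus strand), at position -60 for Nop2 (chr6:125131633-125131932, plus strand) and 18 bases into the transcript for Wdr43 (chr17:71615965-71616264, plus strand).
Grwd1 promoter: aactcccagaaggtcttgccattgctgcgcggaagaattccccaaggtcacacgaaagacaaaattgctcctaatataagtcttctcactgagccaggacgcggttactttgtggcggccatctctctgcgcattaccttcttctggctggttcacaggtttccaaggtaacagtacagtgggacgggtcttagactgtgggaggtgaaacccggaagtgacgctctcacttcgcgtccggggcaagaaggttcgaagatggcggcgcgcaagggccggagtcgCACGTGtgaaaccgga
Nop2 promoter: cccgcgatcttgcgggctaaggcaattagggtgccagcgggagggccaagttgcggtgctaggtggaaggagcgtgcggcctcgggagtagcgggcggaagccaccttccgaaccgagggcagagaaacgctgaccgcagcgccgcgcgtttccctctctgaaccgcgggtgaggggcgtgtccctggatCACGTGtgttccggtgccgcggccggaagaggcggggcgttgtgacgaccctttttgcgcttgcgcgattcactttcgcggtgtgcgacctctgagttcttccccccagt
Wdr43 promoter: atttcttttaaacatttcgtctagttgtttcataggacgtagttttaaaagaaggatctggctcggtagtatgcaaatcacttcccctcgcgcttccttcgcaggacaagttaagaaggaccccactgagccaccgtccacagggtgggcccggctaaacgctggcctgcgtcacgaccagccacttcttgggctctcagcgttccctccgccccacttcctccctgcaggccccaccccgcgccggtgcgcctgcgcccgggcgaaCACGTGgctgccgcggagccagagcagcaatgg

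Other genes of the pathway were also called lower rather than higher. Of 37 other small-subunit assembly factors 14 fell and 0 rose (median -0.45), led by Wdr75, a processome protein (-0.98 ± 0.13, adjusted p = 0.00173), and Dimt1, an RNA dimethyltransferase (-0.82 ± 0.14, adjusted p = 0.00475). Of 44 tested large-subunit factors outside the members, 15 fell and 0 rose (median -0.47), led by Mina, a ribosomal oxygenase (-1.04 ± 0.15, adjusted p = 0.00268), and Nip7 (-0.95 ± 0.15, adjusted p = 0.00408). Of 23 subunits of the RNA exosome and related nucleases, which trim the precursor, 7 fell and 0 rose (median -0.44), among them Exosc6 (-0.90 ± 0.14, adjusted p = 0.00346) and Exosc1 (-0.99 ± 0.18, adjusted p = 0.00718). Of the 7 genes named at the start as listed under other names, Utp25 fell by 1 of 2 probes (-0.74 ± 0.14, adjusted p = 0.0101), Nol4l rose by both (1.35 ± 0.15 and 1.92 ± 0.14) and the other 5 were not called. Among those 5, Nop9, Nop53 and Utp4 are also counted in the subunit lists above, Utp4 there by a further probe. The counts depended on the arrays: without control replicate 2 they were 4 small-subunit, 4 large-subunit and 2 exosome genes, without control replicate 3 they were 5, 2 and 4, and without Ebf1 replicate 3 the large-subunit count was 3. Without Ebf1 replicate 2 they were 8, 8 and 4, and the large-subunit count was also 8 without control replicate 1 or Ebf1 replicate 1, while the small-subunit count was 9 without control replicate 1 or Ebf1 replicate 3. These lists were written with earlier results of the data known. Their shares with all arrays are to be read beside the 11.0% of all genes that fell. The 11.0% does not apply to counts with an array left out. As given above, a smaller share of all genes fell without control replicate 2 or 3.

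Factors of the polymerases also held called genes, to be read beside the same 11.0%. Of 15 accessory factors and other subunits of RNA polymerase I 3 fell and 0 rose (median -0.30), including Ubtf, which binds the ribosomal RNA gene promoter (-0.70 ± 0.14, adjusted p = 0.00988), and Cd3eap, a subunit of the polymerase whose name escapes the Polr1 pattern (-1.09 ± 0.23, adjusted p = 0.013). For RNA polymerase III, which makes transfer RNAs and the smallest ribosomal RNA, 4 of 21 fell and 0 rose (median -0.19), including Gtf3c4 (-0.66 ± 0.16, adjusted p = 0.0228) and Gtf3c6 (-0.89 ± 0.23, adjusted p = 0.0285). No polymerase III gene was called without control replicate 2 or without Ebf1 replicate 2, and 2 were without control replicate 1 or 3. For polymerase I factors the count was 1 without control replicate 3. The 11.0% is the share with all arrays and does not apply to these counts.

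Of 12 genes of the Myc and Mxd network, 1 fell and 2 rose, with a median of -0.28, shares near the 11.0% and 12.6% of all genes. With slide as a fixed block 1 of the rises was lost. Mycn fell by 1.68 ± 0.16 (adjusted p = 0.000254), from 4.82 ± 0.03 in controls to 3.13 ± 0.22 (SD, n = 3). Mxd1 and Mxd4, which pair with Max and oppose Myc, rose by 1.51 ± 0.13 (adjusted p = 0.000168) and 1.04 ± 0.18 (adjusted p = 0.00563). Myc was not called (-0.22 ± 0.19, adjusted p = 0.43), with 3.82 ± 0.14 in controls and 3.60 ± 0.30 with Ebf1 (SD, n = 3). Among 11 genes of the nucleolar stress and p53 response, 0 fell and 1 rose (median 0.14), Cdkn1a, the cell-cycle inhibitor p21 (0.81 ± 0.18, adjusted p = 0.0175). That share too is near the background, and 0 genes of the list were called without control replicate 1 or 2, without Ebf1 replicate 2 or 3, with slide as a fixed block or with no filter on dim probes.

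**Figure D5:**
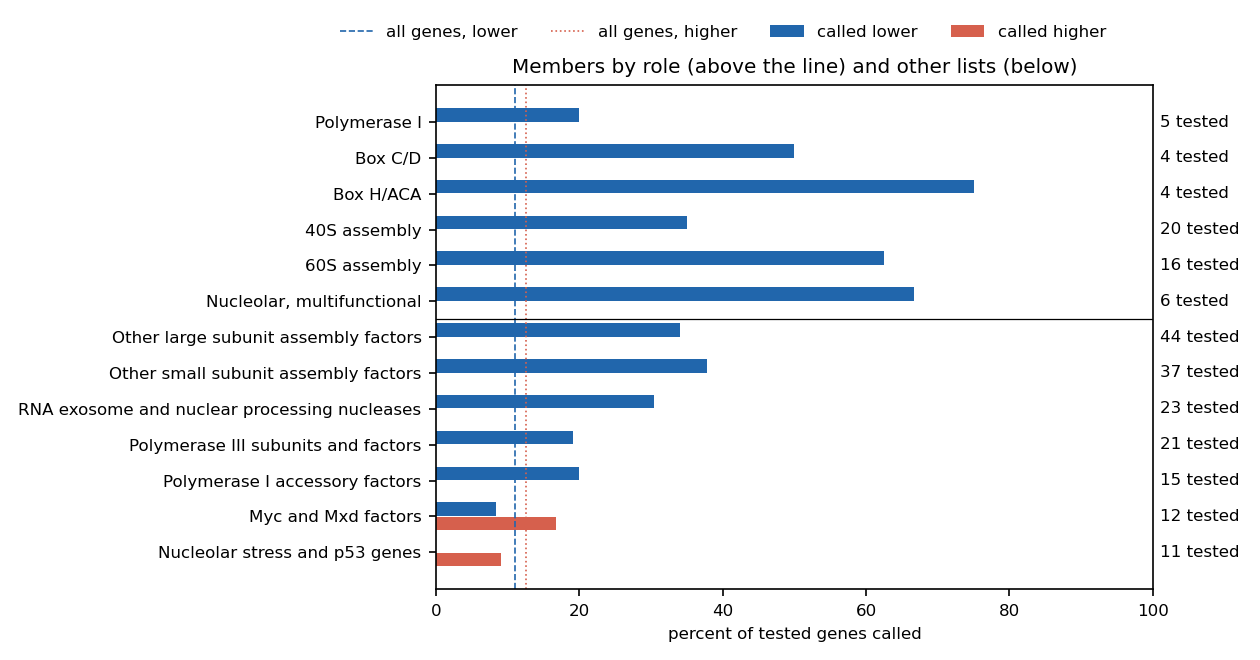
Percent of tested genes called lower (blue) and higher (red) in each role group of members (above the line) and in the other lists (below it), with the number tested at the right. Dashed and dotted lines mark the 11.0% and 12.6% of all genes called lower and higher; the bars of the H/ACA, multifunctional and 60S groups are the longest.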

How the data were processed

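Total RNA of 6 samples, 3 for each virus, was labelled with Cy3 and hybridised to 1-colour Agilent arrays. The authors deposited linear spot intensities for each array, which per the file headers came from Agilent Feature Extraction 10.5.1.1 and are background-subtracted. The authors' deposited table of intensities equals the array files' processed signal. Levels are log2 intensities minus the 75th percentile of 43379 non-control features of the same array, without outlier spots (65 to 116 per array); no saturation was seen. Probes were tested when well above background on all 3 arrays of at least 1 group, which left 20454 of 41174 probes. Groups, named by the sample titles, were compared with limma 3.58.1 (lmFit and eBayes, two-sided, R 4.3.3, data.table version 1.17.8) and adjusted by Benjamini-Hochberg over tested probes. On simulated data the procedure recovered 50% of 100 probes changed by log2 1 and 98% of 100 changed by log2 2. Each time there were 14 false calls over 20447 probes. A gene that was not called may thus still have changed. A gene was its tested probe with the highest mean, giving 13835 genes or unnamed sequences. Gene names are the array's, and accessions of 82 of 100 member probes matched RefSeq. The number of arrays limits the precision.

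Members, gene lists and tests were chosen with earlier results of these data known. Values on every array are given for up to 4 called members with the smallest p and the tested member with the largest p in each role group, and up to 2 called genes per direction are named from each list; Nol8 and a few others were picked with their values in view. Alternatives tried were background correction, normalisation, filters, blocks, moderation, probe choice, value source, GC content and leaving out arrays.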

Additional observations from a re-analysis of the deposited data

How the results depend on the processing

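Under 18 alternative settings 0 member genes and 0 member probes rose. The 18 called members with values on every array kept a negative change in all 324 values. They had been picked because they were called lower in the same arrays, so this sign was largely set beforehand. For the 6 other named members, picked for the largest p, 70 of 108 values were negative. Grwd1, Nhp2, Ddx21 and Wdr43 were called in all 18 settings. The count of 27 member genes lower ranged from 14 to 22 when 1 array was left out, that of 43 probes from 20 to 34, and the median change from -0.60 to -0.51. The share of all genes that fell was also smaller without control replicate 2 or 3, as given above. With no filter on dim probes, 7 genes and 11 probes were called lower, and more features were then tested. With slide as a fixed block, which rests on control replicate 2 against Ebf1 replicate 1 and leaves 2 residual degrees of freedom, 10 genes and 16 probes were called and the median was -0.74. The median was -0.47 with normexp background correction and -0.43 with quantile normalisation; for these the cause was not tested. Apart from the replicate block below, counts in the other settings were within 1.5 times: 22 genes with median scaling and 31 with trended and robust moderation were the extremes. Among the lists outside the members, 4 to 18 other small-subunit and 2 to 20 other large-subunit factors fell, 1 to 11 exosome genes, 0 to 3 polymerase I and 0 to 6 polymerase III factors; 0 to 7 stromal markers, 0 to 1 p53 genes, 1 to 2 Myc-network and 4 to 7 early B genes rose; 1 to 2 Myc-network and 4 to 5 early B genes fell; 1 polymerase III gene rose with normexp and 1 exosome gene with quantile normalisation.

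The replicate numbers do not pair the samples: deviations of same-numbered arrays correlated at -0.17, -0.25 and 0.10. The highest correlation between arrays of different groups was 0.29, for control replicate 2 and Ebf1 replicate 1, which shared slide 2. Slide 1 held only controls and slide 3 only Ebf1 arrays, so slide and virus cannot be told apart there. With the replicate block, 17 member genes and 24 probes were called lower, where 6.69% of all genes were. Changes as small as that of Polr1c (-0.12 ± 0.13) lay within their own error at 3 arrays a group.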
